A study of Mus musculus with 18 samples.

Results

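Naive CD4 T cells from the spleen and lymph nodes of W131AOTII mice were compared with CD4 single-positive thymocytes of the same genotype, by RNA sequencing. The comparison rests on 6 of the 18 libraries of the series, 3 peripheral and 3 thymic, taken by their titles. Both groups came from C57BL/6 animals with the OT-II transgene, which encodes a T cell receptor for an ovalbumin peptide on MHC class II, and with W131A, a substitution in the receptor-proximal kinase ZAP-70 that weakens the autoinhibited form of the enzyme. The submitters describe W131AOTII as a model in which anergy is encoded genetically. Every cell in both groups therefore carried the substitution, and the groups differ in where the cells were taken and in how they were sorted. Peripheral cells were sorted as naive cells, low for CD44, negative for CD25 and positive for the Va2 chain of OT-II, and thymic CD4 single-positive cells as negative for CD25 and positive for Va2. No CD44 gate is named for the thymic sort, so a difference between the sites in genes linked to CD44 cannot be told apart from the sorting. CD25 and Va2 were gated in both sorts. The labels name 12 W131AOTII mice at 4 mice per group and do not tie mice to libraries, so each p reflects how far libraries, not animals, spread. The 3 peripheral and 3 thymic OTII libraries, which lack the substitution, serve only to show where the W131AOTII difference is unlike that of OTII cells. For OTII the labels name 3 mice, again not tied to libraries. The number of animals behind a library may therefore differ between the genotypes.

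CD4 single-positive thymocytes are the last stage of helper T cell development in the thymus. Over several days in the medulla they silence genes of earlier thymocyte stages, lose reactivity marks left by selection, and gain the transcription factor KLF2 with its target, the sphingosine-1-phosphate receptor S1PR1, which allows exit to blood. Cells that have left go on maturing as recent thymic emigrants, with more of the interleukin-7 receptor, class I MHC-like Qa2 molecules and Ly6C. Anergy is a state in which a T cell survives but responds poorly to antigen, usually after receptor stimulation without full costimulation.

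The 6 libraries held 25509435 to 36218772 counts. Mitochondrial transcripts took 0.254% to 0.649% of the counts. The sorted lineage was seen in both sites: the 12 CD4 T cell markers summed to 19080 to 21632 CPM (read counts scaled to a common library size) in the periphery and 20701 to 23769 CPM in the thymus, and Cd4 was at 1272, 1323 and 1678 CPM in peripheral replicates 1 to 3 and 1239, 1186 and 1329.6 CPM in thymic replicates 1 to 3. Peripheral replicate 2 stood apart from its group. Its 16 B cell markers, without Ighm and Blk, summed to 1270 CPM against 293 and 187 CPM in peripheral replicates 1 and 3 and 30.1 to 45.4 CPM in the thymus. Its myeloid and dendritic cell markers, without Ctss and Cst3, summed to 145.5 CPM against 19.0 and 27.7 CPM in the other peripheral libraries and 10.7 to 12.6 CPM in the thymus. Thymic replicate 3 held more haemoglobin RNA, with erythroid markers at 33.4 CPM against 4.09 and 5.34 CPM in the other thymic libraries. NK and innate-like T cell markers were highest in thymic replicate 1 at 1223 CPM, then in replicate 3 at 900.1 CPM and in replicate 2 at 493.9 CPM, against 527.1 to 701.6 CPM in the periphery. Thymic stroma markers, without Pecam1, summed to 34.5 to 47.4 CPM in the thymus and 13.8 to 21.3 CPM in the periphery, and CD8 T cell markers to 274.9 to 307.2 CPM and 309.6 to 326.7 CPM. Counts and lists are therefore given with and without peripheral replicate 2, and the libraries are named where 1 of them decides a value.

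Of 15204 genes tested, 2923 (19.2%) differed between the sites at an adjusted p under 0.05 (edgeR quasi-likelihood test with Benjamini-Hochberg adjustment, as for all adjusted p below). Of these, 1227 (8.07%) were higher in the periphery and 1696 (11.2%) were higher in the thymus. These shares are the background for each count of list members that rose or fell in W131AOTII cells below. The difference was at least 2-fold for 622 of the higher genes (4.09% of those tested) and 1003 of the lower ones (6.6%), and at least 4-fold for 304 and 566. The libraries of the 2 sites did not overlap at all for 1178 of the higher and 1633 of the lower genes, against 33.1% of all genes tested. Without peripheral replicate 2, 917 of the 1227 higher genes (74.7%) and 1188 of the 1696 lower genes (70%) still passed in the same direction. The balance of the directions depends on the scaling, since offsets for GC content and gene length gave 2273 higher and 1586 lower genes. Genes that fell had longer exonic sequence (median 4584 bases) than genes that rose (median 3196 bases). In these bulk samples, a lower value from fewer cells of a type and one from less RNA per cell cannot be told apart.

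**Figure D1:**
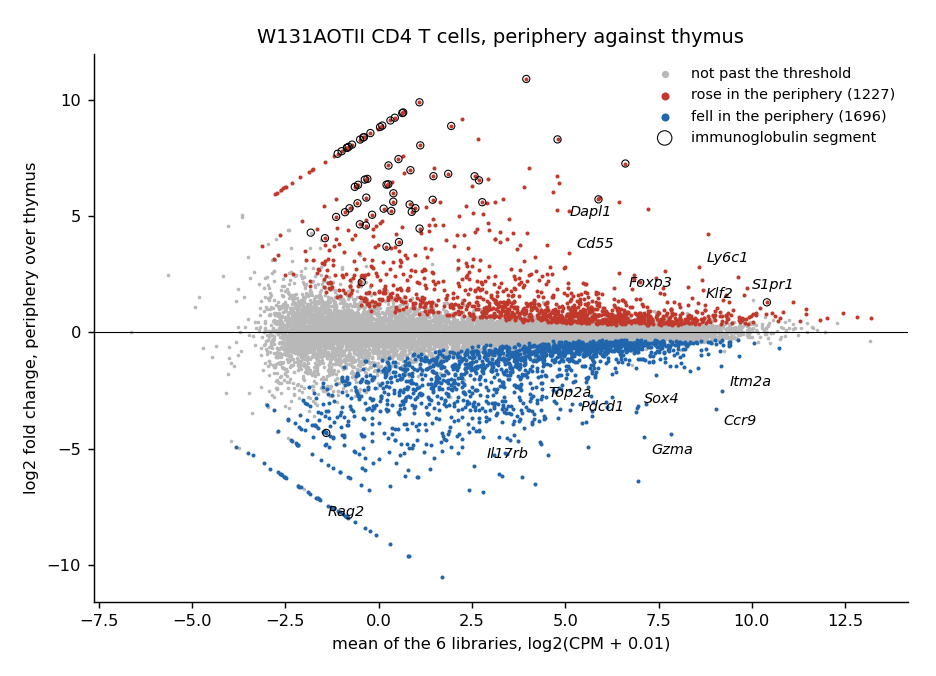
Each point is 1 of 15204 genes. The horizontal axis is the log2 of the mean CPM of the 6 W131AOTII libraries, with a small constant added. The vertical axis is the log2 fold change of periphery over thymus. Red marks the 1227 genes that rose and blue the 1696 that fell, grey the rest, and the named genes are labelled; immunoglobulin segments are drawn as open black circles, and 58 of the 61 are among the genes that rose.

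The 12 rises with the smallest adjusted p, at least 2-fold and without overlap, spanned several roles. Ly6c1, which encodes the Ly6C surface protein, was at 703, 581 and 745 CPM in peripheral replicates 1 to 3 and 92.2, 106 and 94.5 CPM in thymic replicates 1 to 3. Its lowest peripheral value lay over 5 times above its highest thymic value, and its log2 fold change was 2.79 (SE 0.15, adjusted p = 6.6e-10). Reads of Ly6c1 may be shared with its near copy Ly6c2. Cd55, which encodes a complement-decay factor of the cell surface, was at 58.7, 73.3 and 56.9 CPM in peripheral replicates 1 to 3 and 3.55, 7.73 and 6.36 CPM in thymic replicates 1 to 3, a log2 fold change of 3.41 (SE 0.21, adjusted p = 2.6e-09). Dapl1, a gene typical of the most quiescent naive T cells, was at 58.0, 54.2 and 48.1 CPM in peripheral replicates 1 to 3 and 2.28, 0.833 and 1.17 CPM in thymic replicates 1 to 3, and its log2 fold change, the largest of the 12 risers with the smallest adjusted p, was 5.25 (SE 0.35, adjusted p = 5.2e-09). In all 3 genes the peripheral libraries lay close together and clear of the thymic ones.

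Samhd1, which encodes a nuclease that depletes nucleotides in resting cells, was at 534, 481 and 487 CPM in peripheral replicates 1 to 3 and 126, 132 and 133 CPM in thymic replicates 1 to 3, with a log2 fold change of 1.94 (SE 0.11, adjusted p = 1.9e-09). Adgre5, which encodes the adhesion receptor CD97, was at 616, 659 and 666 CPM in peripheral replicates 1 to 3 and 179, 175 and 200.2 CPM in thymic replicates 1 to 3, with a log2 fold change of 1.81 (SE 0.12, adjusted p = 5.1e-09). Vipr1, which encodes a receptor for vasoactive intestinal peptide on resting T cells, rose by 2.30 (SE 0.15, adjusted p = 4e-09). Socs3, an inhibitor of cytokine signalling through STAT3, went from 154, 129 and 138 CPM in the thymus to 595, 631 and 799.5 CPM in the periphery. Phf11a, Chil5, Nacc2, Ly6a and H2-Q6 complete this group, with log2 fold changes of 4.01, 4.04, 2.75, 2.37 and 2.66 and no overlap between the sites. H2-Q6 shares much of its sequence with H2-Q7, so the split of reads between them is uncertain.

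The 12 falls chosen in the same way were as mixed. Ccr9, the receptor for the thymic and gut chemokine CCL25, was at 137, 57.6 and 97.1 CPM in peripheral replicates 1 to 3 and 989.8, 749 and 1144 CPM in thymic replicates 1 to 3. Every thymic library exceeded every peripheral one more than 5-fold, and the log2 fold change was -3.30 (SE 0.26, adjusted p = 3.8e-08). Itm2a, a membrane protein induced during positive selection, was at 175, 153 and 192 CPM in peripheral replicates 1 to 3 and 678, 1196 and 1136 CPM in thymic replicates 1 to 3, a log2 fold change of -2.53 (SE 0.20, adjusted p = 4.8e-08). Il17rb, a subunit of the interleukin-25 receptor, fell from 43.8, 37.2 and 35.7 CPM to 1.67, 1.45 and 1.37 CPM, a log2 fold change of -4.69 (SE 0.28, adjusted p = 1.9e-09). The Hedgehog signal transducer Smo fell by 3.85 on the log2 scale, Tnfsf11, the gene of the cytokine RANKL that thymocytes use to instruct medullary epithelium, by 3.31, and Nedd4, a ubiquitin ligase, by 3.57. Zcchc12, Jup, Ndrg1, Mxd4, Sall2 and Ccr4 were also among the 12 genes with the smallest adjusted p that fell, with log2 fold changes from -4.81 for Zcchc12 to -1.69 for Mxd4.

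Genes of thymic exit and lymph node homing rose in part. Of 23 listed, 8 rose, 4 fell and 11 did not pass, against 8.07% and 11.2% of all genes, with a median log2 fold change of 0.36 against -0.02 over all genes. Klf2, which encodes the factor that drives the exit programme, was at 479, 581 and 545 CPM in peripheral replicates 1 to 3 and 267, 166 and 237 CPM in thymic replicates 1 to 3, and its log2 fold change was 1.26 (SE 0.16, adjusted p = 1.2e-05). S1pr1, the receptor that senses the exit signal in blood, was at 1272, 1305 and 1455 CPM in peripheral replicates 1 to 3 and 379, 423 and 499 CPM in thymic replicates 1 to 3, a log2 fold change of 1.63 (SE 0.12, adjusted p = 2e-08). For both genes the lowest peripheral library was above the highest thymic library.

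**Figure D2:**
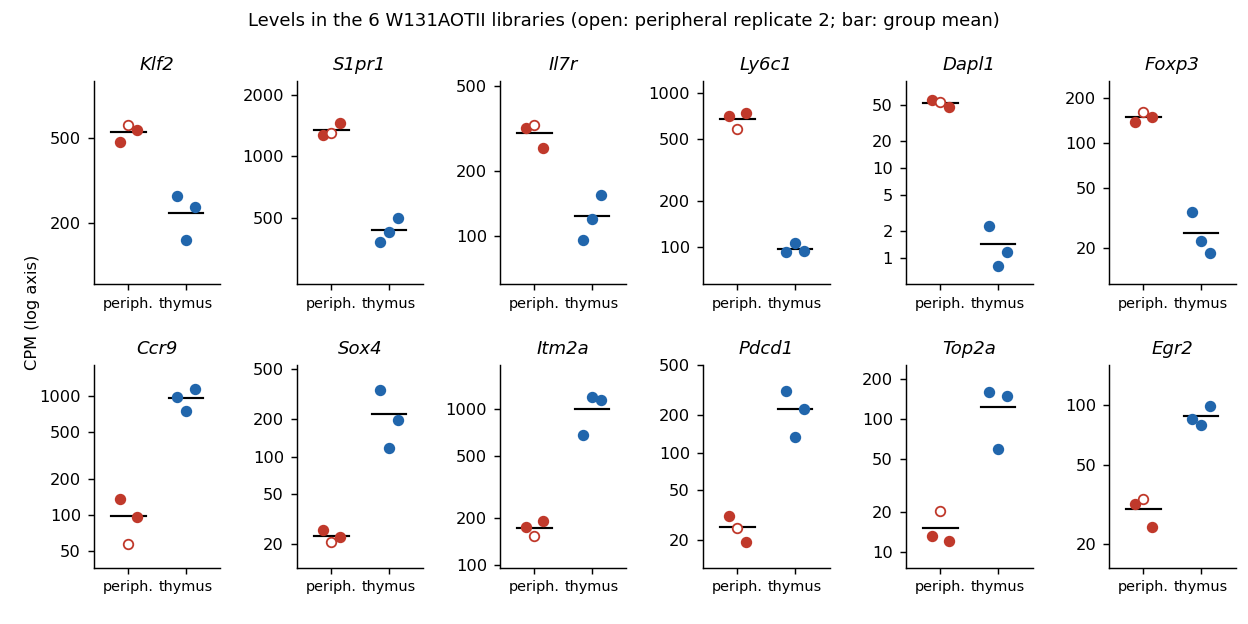
CPM on a log axis for 12 genes in the 3 peripheral (red) and 3 thymic (blue) W131AOTII libraries, 1 point a library, with peripheral replicate 2 as an open point and a bar at each group mean. Klf2, S1pr1, Il7r, Ly6c1, Dapl1 and Foxp3 are higher in all peripheral libraries, and Ccr9, Sox4, Itm2a, Pdcd1, Top2a and Egr2 are higher in all thymic ones.

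Ccr7, the receptor that takes T cells into lymph nodes, rose from 1298, 1287 and 1491 CPM to 1956, 2066 and 2242 CPM (0.62 (SE 0.12, adjusted p = 0.0012) as log2). The transcription factor Foxo1, which sustains Klf2 and Il7r in resting T cells, rose by 0.90 and the integrin chain Itgb7 by 1.31. S1pr4 and Klf3 rose as well. The members that fell were Ccr9, Ccr4, the semaphorin receptor Plxnd1, which guides thymocytes within the thymus, and the integrin chain Itgb1. Cd69, whose protein retains cells in the thymus by holding S1PR1 inside, was at 118 to 154 CPM in the periphery and 88.1 to 138 CPM in the thymus, and these values overlapped, with a log2 fold change of 0.15 (SE 0.19, adjusted p = 0.66). The motif CACCC, bound by factors of the KLF family and searched on both strands, was in the promoter window (250 bases before to 50 after the start, RefSeq) of 4 of the 5 genes that rose with an entry, against 66.3% of the genes tested. The number that rose was 14 with offsets for GC content and gene length, and between 8 and 11 with any 1 library left out.

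Markers of late maturation rose together. Of 31 listed, 22 rose, 1 fell and 8 did not pass, and the median log2 fold change was 0.67. Without peripheral replicate 2, 19 rose and 1 fell, and without thymic replicate 1, 2 fell. Il7r, the receptor for the survival cytokine interleukin 7, was at 319, 329 and 256 CPM in peripheral replicates 1 to 3 and 95.1, 119 and 154 CPM in thymic replicates 1 to 3, a log2 fold change of 1.29 (SE 0.21, adjusted p = 0.00017). The interleukin-6 receptor gene Il6ra rose by 1.68 and Igfbp4, which encodes a secreted binding protein for insulin-like growth factors, by 1.89. The GTPase genes Gimap3, Gimap5 and Gimap7, whose family supports lymphocyte survival, rose by 1.06, 0.64 and 0.67. Of the class I genes, H2-K1 rose by 0.84 and H2-D1 by 0.66, less than H2-Q6, given above. H2-Q7 rose as well. B2m passed at 0.52 (SE 0.17, adjusted p = 0.038) with all libraries and did not pass without peripheral replicate 1 or 3 or thymic replicate 1 or 2. Ifngr2, a chain of the interferon gamma receptor, was the member that fell, at -0.56.

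Genes of earlier thymocyte stages fell as a group. Of 29 listed, 20 fell, 2 rose and 7 did not pass, with a median log2 fold change of -1.25, and 17 to 20 fell with any 1 library left out. Sox4, a factor of immature thymocytes, was at 25.7, 20.5 and 22.5 CPM in peripheral replicates 1 to 3 and 339, 118 and 198 CPM in thymic replicates 1 to 3, a log2 fold change of -3.25 (SE 0.32, adjusted p = 7.9e-07). Tox, which is needed to form CD4 single-positive cells, fell by 1.25 from 228, 195 and 261 CPM to 100.3, 87.8 and 98.8 CPM. Aqp11, Arpp21, Myb, Ptcra and Satb1 were also among those that fell.

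The recombinase genes were near the detection limit in both sites. Rag1 had 52, 61 and 80 counts in the thymic libraries and 0, 6 and 0 in the peripheral ones, so that its only peripheral counts were in replicate 2. Rag2 had 55 counts over the thymic group and 0 in the periphery, which against a floor of 3 counts over the group is at least 21-fold lower. Cd24a, a surface marker lost with maturation, was at 3.23, 12.6 and 2.197 CPM in peripheral replicates 1 to 3 and 15.1, 15.1 and 21.3 CPM in thymic replicates 1 to 3, a log2 fold change of -1.52 (SE 0.42, adjusted p = 0.014), with its highest peripheral value in replicate 2. Its call was lost without peripheral replicate 1 or 3 or thymic replicate 3. Members typical of double-positive cells did not all fall: Cd8b1 was at 183, 174 and 187 CPM in peripheral replicates 1 to 3 and 172, 174 and 180.4 CPM in thymic replicates 1 to 3, and Dntt, the terminal transferase, at 217, 162 and 299 CPM in peripheral replicates 1 to 3 and 237, 215 and 317 CPM in thymic replicates 1 to 3, and both overlapped between the sites. Of 11 double-positive markers 8 fell and 0 rose, and the part of any double-positive cells in the thymic sort was not tested. The 2 members that rose were Slc6a19 and Ly6d, and without peripheral replicate 1 or 2 or thymic replicate 3 only 1 of them passed.

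Of 21 factors of CD4 lineage and naive identity, 2 rose and 6 fell, against 8.07% and 11.2% of all genes, and the CD4 commitment partners Tcf7 and Lef1 were at similar levels, with log2 fold changes of 0.12 (SE 0.12, adjusted p = 0.56) and 0.17 (SE 0.12, adjusted p = 0.36), although Lef1 passed at 0.34 with offsets for GC content and gene length. The members that fell were the inhibitors of E proteins Id2 and Id3, with log2 fold changes of -1.23 and -1.42, Satb1, Gata3, Cbfb and Tox2. Of the risers Foxo1 kept its call with any 1 library left out, while Runx3, a factor of CD8 and cytotoxic cells, lost its call without peripheral replicate 2 or 3 or thymic replicate 2. Of 22 Notch pathway genes, 3 rose and 2 fell, close to the 19.2% of all genes that passed in either direction, with 9 rising under offsets for GC content and gene length. Dtx4 rose from 5.75, 3.62 and 5.71 CPM to 26.9, 20.99 and 35.6 CPM and Psen2, a catalytic subunit of gamma-secretase, from 67.0, 34.2 and 41.6 CPM to 101, 139.7 and 127 CPM. The receptor Notch3 had a log2 fold change of -3.79, from 9.50, 3.85 and 9.44 CPM to 0.879, 0.418 and 0.318 CPM, and only 1 of Notch3 and Heyl passed without any 1 of the peripheral libraries.

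**Figure D3:**
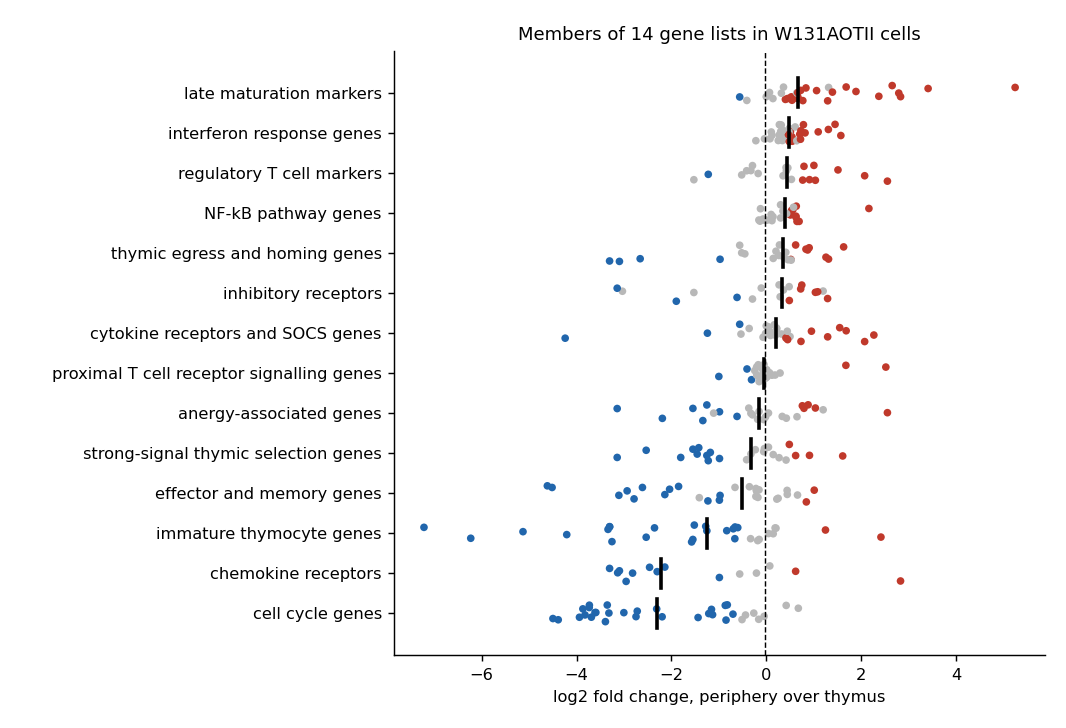
Log2 fold change of periphery over thymus for each tested member of 14 gene lists, 1 point a gene, red for members that rose, blue for members that fell and grey for the rest, with a black bar at the list median and a dashed line at the median of all genes. Cell cycle, chemokine receptor and immature thymocyte genes lie mostly below 0, and late maturation, interferon and NF-kB genes mostly above.

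Genes left high by strong receptor signals during selection fell more often than they rose. Of 23 listed, 10 fell, 4 rose and 9 did not pass, with a median of -0.32. Egr2, a factor induced by receptor signals, was at 32.0, 33.8 and 24.4 CPM in peripheral replicates 1 to 3 and 84.6, 79.8 and 99.1 CPM in thymic replicates 1 to 3, a log2 fold change of -1.55 (SE 0.16, adjusted p = 9e-07). Nr4a1, which encodes the immediate-early factor Nur77, was at 69.3, 69.0 and 49.9 CPM in peripheral replicates 1 to 3 and 147, 95.4 and 129.9 CPM in thymic replicates 1 to 3, and its log2 fold change was -0.99 (SE 0.15, adjusted p = 0.00013). Egr1 fell from 318, 266 and 396 CPM to 130.6, 138 and 88.0 CPM and Nab2, a co-repressor of the EGR factors, from 155, 102 and 98.3 CPM to 29.6, 41.9 and 30.5 CPM. Pdcd1, the gene of the inhibitory receptor PD-1, was at 31.5, 25.2 and 19.3 CPM in peripheral replicates 1 to 3 and 314, 133 and 224 CPM in thymic replicates 1 to 3, a log2 fold change of -3.14 (SE 0.33, adjusted p = 1.3e-06), with thymic replicate 2 the lowest of its group. Egr1 and Nr4a1 also stand in a list of handling-sensitive genes, of which 6 of 22 fell, Dusp1 and Btg2 among them, and 3 rose. Only 1 rose without peripheral replicate 3 or thymic replicate 2 or 3. The part of tissue handling in these falls was not tested.

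Not all genes induced by receptor signals fell. Of 25 such reporters, 5 rose and 4 fell, against 8.07% and 11.2% of all genes, with a median of 0.05. Tagap, a GTPase-activating protein of T cells, rose from 18.7, 11.5 and 20.8 CPM to 59.3, 56.0 and 48.6 CPM, and Il2ra, whose product CD25 was excluded by both sorts, from 37.5, 29.2 and 39.7 CPM to 71.7, 71.6 and 70.0 CPM. Cd5, which scales with the strength of self-recognition, was at 276, 321 and 208 CPM in peripheral replicates 1 to 3 and 247, 159 and 169 CPM in thymic replicates 1 to 3. One thymic library lay within the peripheral range, and the log2 fold change of 0.49 (SE 0.16, adjusted p = 0.04) lost its call without peripheral replicate 1 or 2 or thymic replicate 2 or 3.

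Genes of the receptor machinery passed about as often as genes at large. Zap70, which carries the W131A substitution in all 6 libraries, was at 299.8, 339.5 and 361 CPM in peripheral replicates 1 to 3 and 478, 239.7 and 326 CPM in thymic replicates 1 to 3, a log2 fold change of -0.06 (SE 0.20, adjusted p = 0.89), and the sites overlapped. Of 25 proximal signalling genes, 2 rose and 3 fell with all libraries, against 19.2% of all genes in either direction, with a median of -0.05. Tec, a kinase that acts downstream of the receptor, rose from 25.2, 20.7 and 22.9 CPM to 71.0, 69.0 and 80.0 CPM, while Rasgrp1, an activator of Ras, fell from 865, 1105 and 1273 CPM to 567, 487 and 569 CPM. Syk, the kinase that B cells use in place of ZAP-70, was at 9.41, 65.9 and 11.1 CPM in the periphery, highest in replicate 2 with the B cell transcripts, and its call was lost without that library. Of Cd247, Lcp2 and Rasgrp1, the 3 that fell, only 1 passed without peripheral replicate 1 or without replicate 2.

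Of 28 negative regulators of signalling tested, 3 rose and 6 fell, with a median of -0.17. Over all genes 8.07% rose and 11.2% fell, so the rises were near the share of all genes. Without thymic replicate 1, 5 rose. Dgka, a kinase that removes diacylglycerol, was at 2374, 2232 and 2469 CPM in peripheral replicates 1 to 3 and 1111, 1448 and 1277 CPM in thymic replicates 1 to 3, a log2 fold change of 0.88 (SE 0.12, adjusted p = 3.7e-05). Cblb, which encodes the ubiquitin ligase deleted in other groups of the series, was at 177, 154 and 146 CPM in peripheral replicates 1 to 3 and 113, 124 and 141 CPM in thymic replicates 1 to 3, a log2 fold change of 0.34 (SE 0.17, adjusted p = 0.19), and it passed at 0.49 with the offsets for GC content and gene length. The adaptor gene Dok2 and the ERK phosphatase gene Dusp6 fell, with log2 fold changes of -1.06 and -1.28, and Nedd4 fell as given above.

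Genes tied to anergy and to regulatory T cells did not move as 1 block. Over all genes 8.07% rose and 11.2% fell. Of 25 anergy-associated genes, 5 rose and 7 fell, with a median of -0.15, and 2 defining surface markers of anergic cells did not pass: Nt5e, which encodes CD73, was at 63.7, 66.7 and 47.5 CPM in peripheral replicates 1 to 3 and 56.6, 38.8 and 37.2 CPM in thymic replicates 1 to 3, and Izumo1r, which encodes folate receptor 4, at 107, 128 and 97.6 CPM in peripheral replicates 1 to 3 and 209.9, 93.1 and 113 CPM in thymic replicates 1 to 3. The members that rose were Foxp3, Dgka, Nrp1, Ctla4 and the Notch target Dtx1, and those that fell included Ndrg1, Egr2, Tox, Pdcd1, Nr4a1 and Cd200. Dtx1 lost its call without peripheral replicate 3 or thymic replicate 2.

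Foxp3, the defining factor of regulatory T cells, was at 138, 161 and 148 CPM in peripheral replicates 1 to 3 and 35.0, 22.5 and 18.5 CPM in thymic replicates 1 to 3, a log2 fold change of 2.55 (SE 0.21, adjusted p = 5.6e-08). The lowest peripheral value was nearly 4 times the highest thymic value, although both sorts excluded CD25-positive cells. Of 20 regulatory T cell markers tested, 8 rose and 1 fell, with a median of 0.44. Lrrc32, which encodes a carrier of latent TGF-beta, rose by 1.51, Il2ra by 1.004, the receptor gene Gpr83 by 0.77, Nrp1 by 0.80, Ctla4 by 1.04 and Tnfrsf4, which encodes OX40, by 0.91. Ikzf2, the gene of Helios, was the member that fell, at -1.22 (SE 0.35, adjusted p = 0.018), and its call was lost without peripheral replicate 2 or 3 or thymic replicate 2. Without peripheral replicate 2, 2 other markers fell.

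Inhibitory receptors also went both ways, with 6 of 18 higher and 3 lower, against 8.07% and 11.2% of all genes. Lair1 and Vsir, receptors of resting lymphocytes, rose by 1.08 and 0.73, and Pdcd1, Cd160 and Cd200 fell. The number that rose was 4 without peripheral replicate 2.

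Among cytokine receptors, chains for interleukins 6, 7 and 15 rose. Of 27 receptor and SOCS genes, 9 rose and 3 fell, with a median of 0.21. Besides Il7r, Il6ra and Socs3, Il15ra rose from 10, 11.6 and 9.88 CPM to 21.1, 20.2 and 19.6 CPM. Il12rb2, the chain that confers interleukin-12 responses, fell from 12.0, 8.10 and 16.8 CPM to 0.935, 0.386 and 0.605 CPM, a log2 fold change of -4.24 (SE 0.53, adjusted p = 1.1e-05). NF-kB pathway genes rose where they changed: 10 of 24 rose and 0 fell, with a median of 0.39, and 9 to 12 rose with any 1 library left out. Bcl3, a nuclear co-activator of the p50 and p52 subunits, was at 165, 191 and 268 CPM in peripheral replicates 1 to 3 and 58.5, 37.0 and 43.7 CPM in thymic replicates 1 to 3, a log2 fold change of 2.16 (SE 0.18, adjusted p = 1e-07). Birc3, Ikbkb and Traf1 rose by 0.63, 0.63 and 0.65, and the subunits Relb, Rela and Nfkb2 also passed.

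Interferon response genes were higher in the periphery where they differed. Interferons act through the ISGF3 and IRF factors on promoter elements made of a repeated TTTC core, and the capitals below mark each place where 2 TTTC blocks stand 2 bases apart, in the bases just before the start of 3 of the genes that rose (RefSeq, GRCm38.p6, all on the plus strand). The stretch shown for Ifit3 is chr19:34583349-34583528, that for Gbp2 is chr3:142620563-142620662 and that for Gbp3 is chr3:142559944-142560043.
Ifit3: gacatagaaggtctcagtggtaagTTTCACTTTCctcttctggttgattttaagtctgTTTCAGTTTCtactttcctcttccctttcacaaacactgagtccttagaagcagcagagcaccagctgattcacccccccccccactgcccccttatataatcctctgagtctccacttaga
Gbp2: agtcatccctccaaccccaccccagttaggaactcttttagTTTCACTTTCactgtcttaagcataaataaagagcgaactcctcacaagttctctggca
Gbp3: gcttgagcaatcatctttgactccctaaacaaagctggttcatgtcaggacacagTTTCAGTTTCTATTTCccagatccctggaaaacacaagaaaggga

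Of 36 interferon response genes, 15 rose and 0 fell, with a median log2 fold change of 0.47. Ifit3, an antiviral effector, was at 209, 124 and 187 CPM in peripheral replicates 1 to 3 and 63.3, 66.2 and 60.4 CPM in thymic replicates 1 to 3, a log2 fold change of 1.45 (SE 0.20, adjusted p = 3.1e-05). Gbp2, a guanylate-binding GTPase, was at 374, 267 and 422 CPM in peripheral replicates 1 to 3 and 190.2, 193 and 219.8 CPM in thymic replicates 1 to 3, a log2 fold change of 0.82 (SE 0.14, adjusted p = 0.00034), and Gbp3 at 52.8, 51.1 and 62.4 CPM in peripheral replicates 1 to 3 and 29.1, 24.9 and 23.8 CPM in thymic replicates 1 to 3, a log2 fold change of 1.10 (SE 0.13, adjusted p = 8.6e-06). In all 3 genes peripheral replicate 2 was the lowest of its group and still above every thymic library. Ifitm3, which restricts virus entry, rose by 1.57. The count was 20 without peripheral replicate 2, 11 without replicate 1 and 10 without replicate 3, and 24 once GC content and gene length entered as offsets. The element was present in the promoter window, from 250 bases before to 50 after the start on both strands, of 17 of the 28 listed genes with an entry. It was present in 7 of the 12 that rose and in 10 of the 16 that did not pass, against 3.44% of all 32851 promoters and 3.84% of those of the genes tested.

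Chemokine receptors of thymic and effector cells fell. Of 14 tested, 9 fell and 2 rose, with a median of -2.22. Ccr4, which draws thymocytes to the medulla, was at 9.38, 8.81 and 8.09 CPM in peripheral replicates 1 to 3 and 93.9, 55.8 and 75.1 CPM in thymic replicates 1 to 3, a log2 fold change of -3.10 (SE 0.20, adjusted p = 5.1e-09), and Ccr8 was at 4.14, 7.97 and 5.54 CPM in peripheral replicates 1 to 3 and 57.6, 29.0 and 50.2 CPM in thymic replicates 1 to 3, a log2 fold change of -2.95 (SE 0.26, adjusted p = 1.8e-07). The falls of Cxcr3, Cxcr6 and Ccr2, receptors of effector cells, are seen between a CD44-low sort and a thymic sort without that gate. The 2 that rose were Ccr7 and Cxcr5, the receptor for the B cell follicle, at 30.7, 67.9 and 28.8 CPM in peripheral replicates 1 to 3 and 6.02, 4.71 and 7.21 CPM in thymic replicates 1 to 3. Cxcr5 is also a B cell gene and was highest in peripheral replicate 2. Its lowest peripheral value was still nearly 4 times the highest thymic one, and it passed with any 1 library left out.

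Of 28 effector and memory genes 12 fell, with 2 rising and a median of -0.51. Gzma, which encodes a granule protease of cytotoxic and innate-like lymphocytes, was at 15.3, 8.71 and 10.7 CPM in peripheral replicates 1 to 3 and 437, 107 and 249.9 CPM in thymic replicates 1 to 3, a log2 fold change of -4.52 (SE 0.46, adjusted p = 1.9e-06). Anxa2 and Lgals3, which rise in activated cells, fell from 198, 62.5 and 137 and 23.1, 12.9 and 16.8 CPM to 18.5, 29.3 and 9.78 and 1.39, 4.37 and 1.15 CPM. In all 3 genes thymic replicate 1 was highest and replicate 2 lowest of the thymic group. The NK and innate-like markers stood in the same order in these libraries, also without Gzma, which is one of them, at 786, 387 and 650.2 CPM in thymic replicates 1 to 3. Without Gzma these markers summed to 686, 528 and 516.5 CPM in peripheral replicates 1 to 3. The sites thus overlapped, with thymic replicate 2 below every peripheral library. Within that marker list, Zbtb16, Gzma and Eomes fell and Klrd1, Prf1 and Tyrobp rose among 14 tested, and 6 fell without peripheral replicate 1 and 5 without replicate 2. Genes of gamma-delta and innate-like T cells, 14 of them chosen after their values were seen and Il17rb and Maf among them, summed to 246, 83.7 and 37.4 CPM in peripheral replicates 1 to 3 and 2562, 888 and 1712 CPM in thymic replicates 1 to 3. These sums leave out Blk and Trdc, which did not pass, and with both they were 542, 278 and 188.5 CPM and 3108, 1112 and 2109 CPM. Their part in the falls of the effector genes was not tested. Fasl and Prdm1 rose, and 4 members rose without thymic replicate 1.

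Most proliferation genes fell. Of 33 cell cycle genes, 26 fell and 0 rose, with a median of -2.31, and 23 to 28 fell with any 1 library left out. Top2a, a topoisomerase of dividing cells, was at 13.2, 20.1 and 12.1 CPM in peripheral replicates 1 to 3 and 158, 58.8 and 147 CPM in thymic replicates 1 to 3, a log2 fold change of -3.002 (SE 0.36, adjusted p = 5.8e-06). Rrm2, which supplies nucleotides for replication, was at 6.09, 13.0 and 8.53 CPM in peripheral replicates 1 to 3 and 154, 44.6 and 90.5 CPM in thymic replicates 1 to 3, and Kif11, a spindle motor, at 2.66, 4.56 and 1.75 CPM in peripheral replicates 1 to 3 and 53.7, 23.2 and 42.5 CPM in thymic replicates 1 to 3. Bub1, of the spindle checkpoint, fell from 24.7, 8.88 and 20.2 CPM to 0.368, 1.32 and 0.700 CPM. The summed level of the list was 5139, 2557 and 3726 CPM in thymic replicates 1 to 3 and 2029, 2340 and 2480 CPM in the periphery. Thymic replicate 2 was thus close to the peripheral libraries, although each of the 4 genes above stayed higher in it than in any peripheral library.

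Genes of survival, glycolysis and cholesterol synthesis passed about as often as the 19.2% of all genes. Bcl2 was at 196, 192 and 147 CPM in peripheral replicates 1 to 3 and 169.6, 226 and 176 CPM in thymic replicates 1 to 3, with overlapping sites, and Bcl2l1, which encodes Bcl-xL, fell from 76.9, 70.2 and 69.4 CPM to 30.9, 33.1 and 32.9 CPM, a log2 fold change of -1.16 (SE 0.12, adjusted p = 1.1e-06). The pro-apoptotic Bmf fell, at -1.78 on the log2 scale, and Bid, the only 1 of 16 BCL-2 family genes that rose, lost its call without peripheral replicate 2 or 3 or thymic replicate 2 or 3. Of 26 genes of the PI3K, AKT and mTOR pathway, 2 rose, Phlpp1 and Pdk1, of which 1 passed without peripheral replicate 1 or 3 or thymic replicate 1, while 9 rose under the offsets for GC content and gene length, and 2 fell without thymic replicate 1. Of 20 glycolysis genes, 1 rose and 3 fell, with Ldhb at -0.80 and the glucose transporter Slc2a1 at 0.63. Only 1 of the 3 passed without peripheral replicate 1 or thymic replicate 3. Of 21 cholesterol synthesis genes, 3 rose and 1 fell, with Sqle at 0.80 among the risers, and 2 fell without thymic replicate 1. Housekeeping genes were not all level, since Tfrc, the transferrin receptor of growing cells, fell from 44.0, 46.3 and 36.4 CPM to 15.0, 14.8 and 13.4 CPM, and Eef1a1 rose by 0.65. Of 16 such genes 1 fell and 3 rose, and only 1 rose without peripheral replicate 1 or 3 or thymic replicate 2.

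B cell transcripts rose in the periphery with and without the replicate that held most of them. Of 18 B cell markers, 17 rose with all libraries, and 16 rose and 1, Blk, fell without peripheral replicate 2. Ighd, a mature B cell immunoglobulin, was at 51.7, 256 and 41.9 CPM in peripheral replicates 1 to 3 and 1.62, 1.44 and 3.64 CPM in thymic replicates 1 to 3, and Cd79b, of the B cell receptor, at 38.4, 169 and 20.3 CPM in peripheral replicates 1 to 3 and 23.1, 10.8 and 19.6 CPM in thymic replicates 1 to 3. The call of Cd79b was lost without peripheral replicate 2 or thymic replicate 2, and that of Ighd was kept with any 1 library left out. Blk, the marker that did not rise, was at 5.16, 26.7 and 3.31 CPM in peripheral replicates 1 to 3 and 81.8, 12.8 and 36.1 CPM in thymic replicates 1 to 3; it is also expressed in interleukin-17-producing gamma-delta T cells. Of 61 immunoglobulin segments tested, 58 were higher with all libraries and 51 without replicate 2. Ighm was at 1754, 2014 and 2002 CPM in peripheral replicates 1 to 3 and 868, 604 and 879 CPM in thymic replicates 1 to 3, far above the other B cell markers and evenly in all peripheral libraries, and the sources used here do not give the strand setting of the counts.

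Myeloid markers rose mainly through that library. Of 19 tested, 9 rose with all libraries and 4 without peripheral replicate 2. Lyz2, the lysozyme of macrophages and granulocytes, was at 3.66, 61.8 and 11.8 CPM in peripheral replicates 1 to 3 and 2.43, 1.46 and 1.82 CPM in thymic replicates 1 to 3, and S100a8, a granulocyte protein, at 0, 3.95 and 0 CPM in peripheral replicates 1 to 3 and 0.0386, 0 and 0 CPM in thymic replicates 1 to 3. S100a8 and the macrophage gene Chil3, at 0, 4.63 and 0.0955 CPM in peripheral replicates 1 to 3 and 0, 0.0287 and 0 CPM in thymic replicates 1 to 3, are among the 5 called genes that moved most without replicate 2, and both lost their calls without it or without any 1 thymic library. The opposite holds for genes with a few counts in replicate 2 alone, such as Gng7 and Plekhh3, which fell further without it. Both lost their calls without peripheral replicate 1 or 3 or thymic replicate 1 or 3. Among the 1227 higher genes, replicate 2 lay at least 2-fold above both other peripheral libraries for 186, and 126 of these still passed without it. Over all 15204 genes tested, replicate 2 lay that far above the other peripheral libraries for 745, replicate 1 for 423 and replicate 3 for 162.

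**Figure D4:**
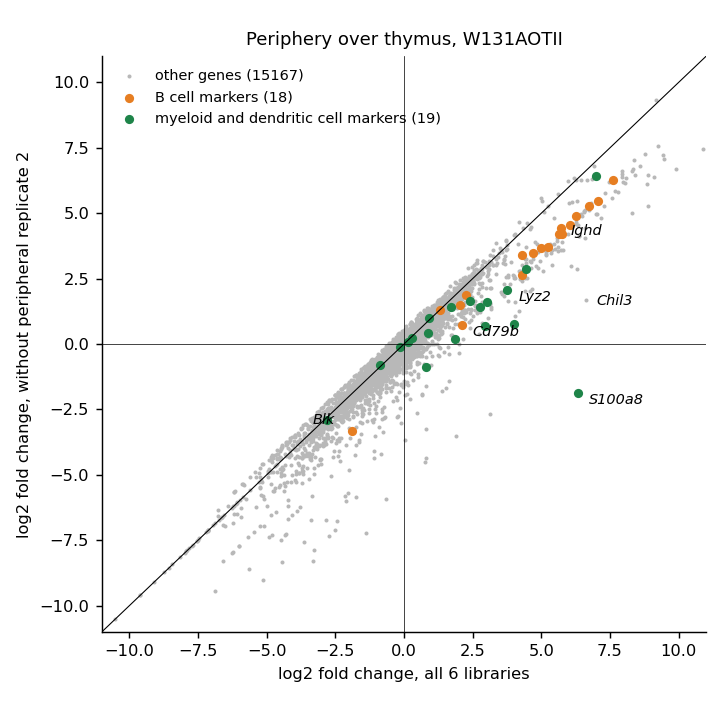
Log2 fold change of periphery over thymus with all 6 W131AOTII libraries (horizontal) and without peripheral replicate 2 (vertical), 1 point a gene, with B cell markers in orange, myeloid markers in green and the line of equal values. All 18 B cell markers and 16 of 19 myeloid markers lie below the line, and 17 of the B cell markers stay above 0.

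Where the 2 genotypes were set side by side, most of the difference between the sites was shared in kind. The OTII comparison, which has no library in common, called 1179 genes higher (7.75%) and 1606 lower (10.6%), or 2529 and 1609 with offsets for GC content and gene length. Of the W131AOTII calls, 1700 were called in the same direction in OTII cells, which is 58.2% of the W131AOTII calls and 61% of the OTII calls, and 9 were called in opposite directions. Across genes the fold changes had a Pearson r of 0.778 and a Spearman rho of 0.578, as a description, since genes are not independent replicates. The difference of the 2 differences passed for 58 genes (0.381%), of which 45 were higher (0.296%) and 13 lower (0.0855%) in W131AOTII. These counts were sensitive to single libraries. The higher genes were 90 without thymic W131AOTII replicate 1, and between 19 and 29 without peripheral OTII replicate 2 or 3, peripheral W131AOTII replicate 1 or 2, thymic OTII replicate 1 or thymic W131AOTII replicate 3. The lower genes were 41 without thymic W131AOTII replicate 1 and 4 to 18 without any other library.

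Klf2 was among the genes whose change between the sites depended on the genotype. In OTII cells it was at 386, 520.2 and 461 CPM in the periphery and 539, 427 and 481 CPM in the thymus, a log2 fold change of -0.08 (SE 0.16, adjusted p = 0.79), so the difference of the differences was 1.34 (SE 0.22, adjusted p = 0.0068). The W131AOTII thymic libraries, at 267, 166 and 237 CPM, were the group that lay apart. Samhd1 was at 327, 348 and 349 CPM in the OTII periphery and 219.9, 173 and 204 CPM in the OTII thymus, so W131AOTII cells were above OTII cells in the periphery and below them in the thymus, without overlap. Its difference was 1.17 (SE 0.16, adjusted p = 0.00087). Ly6a had the same arrangement, with a difference of 1.24 (SE 0.21, adjusted p = 0.0095). Nacc2, Bcl3, Igfbp4 and Dapl1 had higher differences as well, at 1.87 (SE 0.24, adjusted p = 0.00087), 1.16 (SE 0.25, adjusted p = 0.048), 1.80 (SE 0.38, adjusted p = 0.043) and 2.21 (SE 0.45, adjusted p = 0.034). With 1 library left out in turn, Nacc2 passed each time, Bcl3 only without peripheral or thymic W131AOTII replicate 1, and Igfbp4 only without thymic OTII replicate 3 or thymic W131AOTII replicate 1 or 2. Dapl1 passed only without peripheral or thymic OTII replicate 2, peripheral W131AOTII replicate 3 or thymic W131AOTII replicate 1. S1pr1 rose in both genotypes, by 1.63 and 0.89, and its difference did not pass, at 0.74 (SE 0.17, adjusted p = 0.057). It passed with DESeq2, with limma voom, under both other filters on low counts, and without thymic OTII replicate 2 or thymic W131AOTII replicate 3.

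Some genes set by receptor signals also depended on the genotype. The difference was higher in W131AOTII for 4 of the 25 receptor activity reporters and 5 of the 23 strong-signal selection genes and lower for 0, against 0.296% and 0.0855% of all genes. These lists share members: Nr4a1, Egr2 and Tnfrsf4 passed and are counted in both, so the counts are not separate results. Tnfrsf4 is counted again among the regulatory T cell markers below. Cd5 was at 202, 216 and 228 CPM in the OTII periphery and 467, 491 and 511 CPM in the OTII thymus, a log2 fold change of -1.18 (SE 0.16, adjusted p = 3.5e-05), and the difference from W131AOTII was 1.67 (SE 0.23, adjusted p = 0.00096). Nr4a1 was at 40.5, 38.9 and 40.2 CPM and 250.2, 225 and 248 CPM, a log2 fold change of -2.60 (SE 0.16, adjusted p = 2.5e-09), with a difference of 1.61 (SE 0.22, adjusted p = 0.00087). Egr2 and Ccr8 fell in both genotypes, with differences of 1.11 (SE 0.22, adjusted p = 0.025) and 2.89 (SE 0.38, adjusted p = 0.00087). The call for Egr2 was lost without any 1 of 6 libraries: peripheral OTII replicate 3, peripheral W131AOTII replicate 1 or 2, thymic OTII replicate 1 or 3, or thymic W131AOTII replicate 2. For Cd5, Nr4a1 and Egr2 the W131AOTII thymic libraries lay below the OTII thymic libraries without overlap.

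The difference also passed for some regulatory T cell markers. Gpr83 was at 17.2, 19.2 and 19.1 CPM in the OTII periphery and 56.2, 52.3 and 55.5 CPM in the OTII thymus, so it fell in OTII and rose in W131AOTII, with a difference of 2.33 (SE 0.18, adjusted p = 1.1e-06). Tnfrsf4 was at 16.1, 15.7 and 13.0 CPM and 45.2, 38.5 and 47.4 CPM in OTII cells, with a difference of 2.46 (SE 0.32, adjusted p = 0.00087). Ctla4 and Nrp1 had differences of 1.75 (SE 0.34, adjusted p = 0.026) and 1.11 (SE 0.20, adjusted p = 0.017). Both calls were lost without peripheral OTII replicate 3, and that of Ctla4 also without peripheral OTII replicate 2, peripheral W131AOTII replicate 1, thymic OTII replicate 1 or thymic W131AOTII replicate 3. Of the 20 markers, 5 had a higher and 0 a lower difference that passed, against 0.296% and 0.0855% of all genes, and in the OTII comparison itself 3 rose and 9 fell. Foxp3 rose in OTII cells as well, by 1.52, and its difference did not pass, at 1.03 (SE 0.28, adjusted p = 0.15). It passed with DESeq2, with no filter on low counts and without thymic W131AOTII replicate 1.

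**Figure D5:**
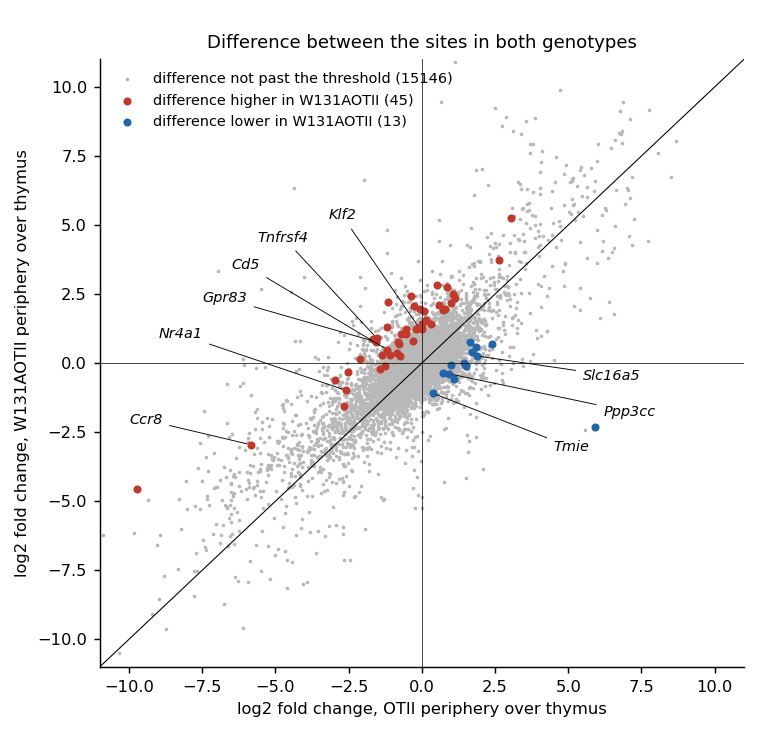
Log2 fold change of periphery over thymus in OTII (horizontal) against W131AOTII (vertical), 1 point a gene, with the 45 genes whose difference was higher in W131AOTII in red and the 13 lower in blue, named genes labelled, and the line of equal values. Klf2, Cd5, Gpr83 and Tnfrsf4 lie above the line, and Slc16a5, Tmie and Ppp3cc below it.

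Few genes went the other way. Slc16a5, a monocarboxylate transporter, was at 428, 405 and 644 CPM in peripheral replicates 1 to 3 and 359, 360.1 and 518 CPM in thymic replicates 1 to 3 in W131AOTII cells and at 497, 547 and 566 CPM and 141, 171 and 122 CPM in the OTII periphery and thymus, a difference of -1.63 (SE 0.25, adjusted p = 0.0028). Tmie, a channel subunit best known from hair cells, had log2 fold changes of -1.10 (SE 0.16, adjusted p = 6.9e-05) in W131AOTII and 0.39 (SE 0.16, adjusted p = 0.11) in OTII cells, a difference of -1.48 (SE 0.23, adjusted p = 0.0028). Ppp3cc, a calcineurin catalytic subunit, was at 53.5, 52.8 and 53.4 CPM in the OTII thymus against 121, 199 and 188 CPM in the W131AOTII thymus, a difference of -1.31 (SE 0.21, adjusted p = 0.0036). In these 3 genes the peripheral libraries of the 2 genotypes were closer together than the thymic ones.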

How the data were processed

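RNA was sequenced as single-end reads of 50 bases. The authors deposited raw counts of reads for each Ensembl gene, not normalized, in 1 column a library, per the file header. STAR 2.7.2, the genome build GRCm38 and DESeq2 are named in the submitters' processing notes. The sources used here do not give the counting step or its strand setting.

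All 55536 gene identifiers matched GENCODE mouse release M21. All 18 libraries of the 6 groups entered 1 edgeR 4.0.16 fit (R 4.3.3) with TMM factors, a robust quasi-likelihood fit and 12 residual degrees of freedom, so the groups shared 1 estimate of the spread. filterByExpr kept 15204 genes. P-values were adjusted by Benjamini-Hochberg over all of these, at a threshold of 0.05. CPM are on TMM-scaled library sizes, and SE belongs to the log2 fold change of the same fit. A group at 0 was set to a floor of 3 counts over its libraries, which covers counting error only. Replicates differed by more than sampling noise (chi-square per gene 27.7 to 96.9), so each counted as 1 sample.

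Genes were named if fixed by name, if among the 12 smallest adjusted p in a direction with at least 2-fold change and no overlap, if among the 4 smallest in a list or named for not passing, if among the most abundant markers of another cell type, or if most moved without peripheral replicate 2. The members, the lists and this rule were chosen with earlier results of these data known. On simulated counts of these 15204 genes for the W131AOTII comparison, 10, 30, 47 and 48 of 50 genes changed 1.5-, 2-, 4- and 8-fold were recovered. For the difference of differences 2, 17, 45 and 46 were recovered. The simulation gave all genes the same spread and changed only the peripheral W131AOTII group, so recovery for genes of wider spread was not tested. Alternatives were DESeq2 1.42.0, limma 3.58.1 voom, 2 other scalings, 2 other filters, only the groups compared, a block, offsets, and each library left out in turn. Promoter windows came from RefSeq (GRCm38.p6).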

Additional observations from a re-analysis of the deposited data

Results flagged for a closer look

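For 23 of the genes named here the difference between periphery and thymus was itself different in the 2 genotypes, by the test of the difference of differences (edgeR quasi-likelihood test with Benjamini-Hochberg adjustment over all genes). The values are log2 differences, W131AOTII minus OTII. Klf2, at 1.34, rose in W131AOTII cells, and its OTII change did not pass. Samhd1 at 1.17, Ly6a at 1.24, Nacc2 at 1.87, Bcl3 at 1.16 and Dapl1 at 2.21 rose more in W131AOTII cells. Nr4a1 at 1.61, Egr2 at 1.11 and Ccr8 at 2.89 fell less in W131AOTII than in OTII cells. Cd5 at 1.67, Gpr83 at 2.33 and Tnfrsf4 at 2.46 rose in W131AOTII and fell in OTII cells. Ctla4 at 1.75 rose in W131AOTII and fell in OTII cells, and Nrp1 at 1.11 rose in W131AOTII cells and did not pass in OTII cells. Igfbp4 at 1.80 rose in W131AOTII cells, and its OTII change did not pass. Of beta variable segments, Trbv1 was at 1.80, Trbv2 at 1.47, Trbv3 at 1.57, Trbv13-3 at 1.42 and Trbv19 at 1.39. Slc16a5, Tmie and Ppp3cc went the other way, at -1.63, -1.48 and -1.31.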

How the results depend on the processing

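The counts of genes higher and lower in the periphery stayed within 1.5 times their values in both genotypes under the alternatives run, except the higher genes with offsets for GC content and gene length, at 2273 in W131AOTII and 2529 in OTII cells, and the OTII higher genes without peripheral OTII replicate 3, at 767. The median log2 fold change of all genes was -0.02, and 0.07 with those offsets and -0.09 with library size scaling. The share of higher genes among the W131AOTII calls was 42%, and 58.9% with the offsets and 34.4% with library size scaling. With 1 library left out, the W131AOTII comparison called 946 to 1310 genes higher and 1224 to 1633 lower, and the OTII comparison 767 to 1037 higher and 1159 to 1506 lower. The difference between the genotypes was the least stable result. Its 45 higher and 13 lower genes became 146 and 64 with DESeq2, 294 and 71 with no filter, 61 and 27 with the offsets, and 41 and 7 with only the groups compared. With 1 library left out they ranged from 19 to 90 and from 4 to 41. The cause was not tested.

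The replicate block, the replicate number within a genotype as a term, called 1107 genes higher and 1499 lower in the W131AOTII comparison, 1172 and 1447 in the OTII comparison, and 29 and 9 for the difference. Deviations from the group mean, compared between libraries with the same number, had correlations of -0.187, -0.0943 and 0.205 for W131AOTII numbers 1 to 3. For OTII they were 0.023, -0.0117 and -0.0149. Peripheral W131AOTII replicate 1 and thymic W131AOTII replicate 2, of unlike number, had 0.27. With 3 libraries a group these values cannot decide whether libraries of 1 number share animals, and the labels do not say.

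The genes whose direction turned had overlapping sites or counts in 1 library. Bcl2 was at 0.06 with the offsets and between -0.19 and 0.05 with 1 library left out, and Zap70 at 0.09 and between -0.26 and 0.22. Cd8b1 was at -0.08 with the offsets and -0.03 with library size scaling. With 1 library left out, Dntt ran from -0.43 to 0.04, Cd69 from -0.05 to 0.27, Izumo1r from -0.53 to 0.09, and S100a8 from -1.86, without peripheral replicate 2, to 8.22. With 3 libraries a group, changes of 2-fold or less were often missed on simulated counts, and more often for the difference of differences. A gene that did not pass is therefore not shown to be level.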

Other observations

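Genes typical of gamma-delta and innate-like T cells were among the larger falls. Those given here were chosen after their values were seen, so no test of the set is given. Sox13, a factor of interleukin-17-producing gamma-delta T cells, was at 5.696, 1.99 and 0.828 CPM in peripheral replicates 1 to 3 and 419, 76.1 and 236 CPM in thymic replicates 1 to 3, a log2 fold change of -6.40 (SE 0.76, adjusted p = 2.7e-05). Etv5, a factor of the same cells, was at 2.86, 2.86 and 3.66 CPM in peripheral replicates 1 to 3 and 136, 31.9 and 116 CPM in thymic replicates 1 to 3, and Cd163l1, a scavenger receptor of gamma-delta T cells, was at 6.06, 8.32 and 2.17 CPM in peripheral replicates 1 to 3 and 153, 32.8 and 59.2 CPM in thymic replicates 1 to 3. The constant segment of a gamma chain, Tcrg-C2, was at 71.4, 14.4 and 5.699 CPM in peripheral replicates 1 to 3 and 386, 151 and 237 CPM in thymic replicates 1 to 3, while Trdc, the delta chain constant segment, was at 291, 168 and 148 CPM in peripheral replicates 1 to 3 and 465, 211 and 362 CPM in thymic replicates 1 to 3 and overlapped between the sites. Zbtb16, which encodes PLZF, the factor of innate-like T cells, was at 0.142, 0.0643 and 0.0637 CPM in peripheral replicates 1 to 3 and 20.2, 6.58 and 4.78 CPM in thymic replicates 1 to 3. In each of these genes thymic replicate 2 or 3 was the lowest thymic library, and for Sox13 every thymic library lay over 10 times above every peripheral one. In OTII cells Sox13 was at 209, 590.4 and 168 CPM in the thymus against 1.67, 2.26 and 1.47 CPM in the periphery. Etv5, Cd163l1, Tcrg-C2 and Trdc were also higher in every OTII thymic library than in any OTII peripheral one. Zbtb16 was too, but only at 0.519, 0.884 and 0.747 CPM in OTII thymic replicates 1 to 3, below every W131AOTII thymic library.

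Of 191 T cell receptor segments tested, 24 rose and 17 fell in W131AOTII cells, against 8.07% and 11.2% of all genes. For 5 beta variable segments, also chosen after their values were seen, the difference between the genotypes passed, at 1.80 for Trbv1, 1.47 for Trbv2, 1.57 for Trbv3, 1.42 for Trbv13-3 and 1.39 for Trbv19 on the log2 scale. All 5 lost the call without peripheral OTII replicate 3 and without peripheral W131AOTII replicate 1. Trbv3 also lost it without peripheral OTII replicate 2, peripheral W131AOTII replicate 2 or thymic OTII replicate 1. Trbv1 and Trbv13-3 kept it only without peripheral W131AOTII replicate 3, thymic OTII replicate 3 or thymic W131AOTII replicate 1, and Trbv19 only without either of the latter pair. Trbv13-3 was at 67.6, 67.1 and 58.7 CPM in peripheral replicates 1 to 3 and 30.0, 23.0 and 29.4 CPM in thymic replicates 1 to 3 in W131AOTII cells and at 26.4, 24.2 and 22.9 CPM and 27.6, 33.6 and 22.5 CPM in the OTII periphery and thymus. The 6 genes Cd74, H2-Aa, H2-Ab1, H2-Eb1, Igkc and Fcmr, of class II MHC and B cells, are outside the marker list. They too were chosen after their values were seen. They summed to 664, 3913 and 506 CPM in peripheral W131AOTII replicates 1 to 3 and 43.7 to 70.9 CPM in the W131AOTII thymus. In the OTII periphery they summed to 656 to 729 CPM. Peripheral W131AOTII replicate 2 was thus the only 1 of these 6 peripheral libraries above 1000 CPM. Given how the genes were chosen, this is a description and not separate support that the library stands apart.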
